A study of Mus musculus with 6 samples.

Results

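The genes that encode translation initiation and elongation factors were examined for YTHDC1 binding in mouse myoblasts. They were chosen by name, as the protein-coding genes of the mm9 GENCODE annotation whose symbols start with Eif or Eef, which gave 67 of 22238 genes. YTHDC1 is a nuclear protein that recognises m6A, a methylated adenosine of RNA, and it was measured by LACE-seq, in which UV light crosslinks the protein to RNA and the end of each cDNA marks the crosslinked site. Peaks were listed for 4 libraries of ASC-48 hr, which are wild-type satellite cells of mouse muscle activated by 48 hr in culture, and for 2 libraries of C2C12, a mouse myoblast line, also labelled WT. Each of 2 biological replicates of ASC-48 hr, named B1 and B2, was split into technical replicates T1 and T2. The C2C12 libraries, numbered 1 and 2 here, were made from 10 times as many cells. The mouse line from which these satellite cells were sorted and the age of the animals were not given in the sources used here. No input or control antibody library was analysed here, so a gene with more peaks may be bound more or hold more RNA, and these cannot be told apart.

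A peak was counted where it lay wholly inside a gene on the strand of its RNA, which is the strand opposite to the one listed for the reads. The height of a peak is its number of reads per bin of 20 nt. Copies of a peak are the exact occurrences in the mm9 genome, on either strand, of the 20 nt at the end of the peak with the lower coordinate. A shared C2C12 peak is a peak of C2C12 1 that overlapped one of C2C12 2, and a shared ASC peak was found in both technical replicates of both biological replicates. The 6 lists differed in length, from 7925 to 19448 peaks in ASC-48 hr and 60540 and 71992 in C2C12, and the lowest height listed was 4 or 5 reads in ASC-48 hr and 6 in C2C12. Among marker genes, Pax7, the transcription factor of satellite cells, held 1, 1, 2 and 10 peaks in the ASC libraries against 0 and 1 in C2C12. Of the other myogenic markers, Myod1 held 0, 2, 1 and 6 peaks in ASC-48 hr against 5 and 3 in C2C12, and Myf5 held 0, 0, 1 and 0 against 2 and 2. The remaining 4 held more peaks in each of the longer C2C12 lists, Itga7 with 0, 4, 5 and 8 against 28 and 20, Des with 0, 3, 1 and 4 against 17 and 16, and Cdh15 and Vcam1 with none in ASC-48 hr against 6 and 9 and 3 and 4. A shared C2C12 peak was found in 5 of 7 myogenic markers, with 11 in Itga7 and 9 in Des, and in both fibro-adipogenic markers, Pdgfra with 1 and Ly6a with 2, which held no peak in ASC-48 hr. The endothelial marker Pecam1 held 1 peak in every library, whereas Cdh5 and the blood marker Ptprc held none.

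Translation of an mRNA begins when eIF4E, eIF4G and the helicase eIF4A assemble on its cap and recruit the small ribosomal subunit, which carries eIF3 and the initiator tRNA held by eIF2. The peptide chain is then extended by eEF1A, which delivers each aminoacyl-tRNA, and by eEF2, which moves the ribosome along. Several of these genes carry small nucleolar RNAs (snoRNAs) inside their introns. A snoRNA guides the chemical modification of ribosomal or spliceosomal RNA, and most are trimmed from the intron after the host transcript has been spliced.

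Of the 10 highest shared C2C12 peaks in the 67 genes, 4 lay on a snoRNA gene, and the others lay in coding exons and the 5′UTR of Eef2. The RNA sequences of these 4 and of 2 other snoRNA peaks were read from the mm9 reference genome. They are shown because they include the highest peak of these genes, with the bases that belong to the annotated snoRNA gene in capitals.
Eef2, intron, Snord37, chr10:80641676-80641705, plus strand: tccctgggaatctctgaccCACCATGATGA
Eif4a2, SNORA63, chr16:23110516-23110545, plus strand: TTTGATACATTACTATCTCTGCCTAGCTCT
Eif4a2, Snora81, chr16:23110816-23110845, plus strand: ttttttttttttcACCTTCTTGTATAAGCA
Eif4a2, second SNORA63, chr16:23111376-23111405, plus strand: GCAGGATTTAACTACAATATAGCTGCTCAG
Eif4g1, intron, Snord66, chr16:20684296-20684325, plus strand: gaggatataataccctTTCCGCTGATGACT
Eif4a1, intron, snoU6-77, chr11:69482456-69482485, minus strand: ACCCCATGCGTGTCATCTGAGCCTGGCTTC
In Eef2 and Eif4g1 the 20-nt peak straddled the first base of the snoRNA, and the letters TGATGA began at base 6 of Snord37 and at base 7 of Snord66. These letters, UGAUGA in RNA, form the core of the C box by which box C/D snoRNAs are known.

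The highest peaks in the reading frame of Eef2, in which the capitals mark the peak itself, are shown for comparison because they belong to the spliced mRNA. The letters TGATGA also occur inside the second of these peaks, so they are not particular to the peaks on snoRNA genes.
Eef2, coding exon, chr10:80644016-80644045, plus strand: ttcatGATGTGACCCTGCATGCTGAtgcca
Eef2, coding exon, chr10:80642896-80642925, plus strand: agaacCATTCTGATGATGGGCCGCTacgtg

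A total of 153 shared C2C12 peaks were found in 28 of the 67 genes, or 41.8%, while 21.9% of all protein-coding genes held a shared C2C12 peak. The count followed the threshold, with 32 peaks in 13 genes left at p of at most 1e-05 in both libraries, 38 in 14 genes at 10 or more reads in both, and 86 peaks among those with 1 copy. Shared ASC peaks were few, 4 in 4 genes, or 5.97% of the 67 genes beside 2.48% of all protein-coding genes, and none was left at p of at most 1e-05 in every library. The number of genes was 2 with peaks of 1 copy only and 7 without B1 T1. It was 13 where a peak in at least 1 library of each biological replicate sufficed. Library by library, B1 T1 held a peak in 10 genes (14.9%, against 7.86% of all protein-coding genes), B1 T2 in 16 (23.9% against 10.0%), B2 T1 in 16 (23.9% against 9.14%) and B2 T2 in 24 (35.8% against 18.6%). C2C12 1 held a peak in 42 genes (62.7% against 33.1%) and C2C12 2 in 46 (68.7% against 37.0%). The share was above that of all genes in each of the 6 libraries. These genes were not matched with other genes for the amount of RNA, whose part was not tested. At least 5 shared C2C12 peaks were held by 9 of the 67 genes, or 13.4%, and by 4.80% of all protein-coding genes.

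The peaks were concentrated in few members. Eef2 and Eef1a1 together held 52 of the 153 shared peaks (34.0%), and the first 8 genes held 109 (71.2%). Another 11 genes held 2 to 4 shared peaks and 8 genes held 1. In 22 genes a peak was called in C2C12 but none was shared, and in Eif2ak1 the only peak was in ASC-48 hr. No library held a peak in 16 genes, which are Eef1a2, Eef1e1, Eef2k, Eif1ad, Eif1b, Eif2a, Eif2b1, Eif2b4, Eif2c4, Eif2s3y, Eif3i, Eif3j, Eif4a3, Eif4e1b, Eif4ebp3 and Eif5a2. Since only peaks above the lowest height are listed, a gene without a peak may still be bound. Most protein-coding genes held no peak in a single library, with a peak in 33.1% of them in C2C12 1 and 37.0% in C2C12 2. At any place in the gene, peaks were called in all 6 libraries in Eef1a1, Eef2, Eif2ak4, Eif3c, Eif4a1 and Eif4e3. Such peaks need not coincide, and Eif2ak4 and Eif4e3 held 0 shared C2C12 peaks. Shares of all protein-coding genes are not given for the groups of genes in this paragraph.

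**Figure D1:**
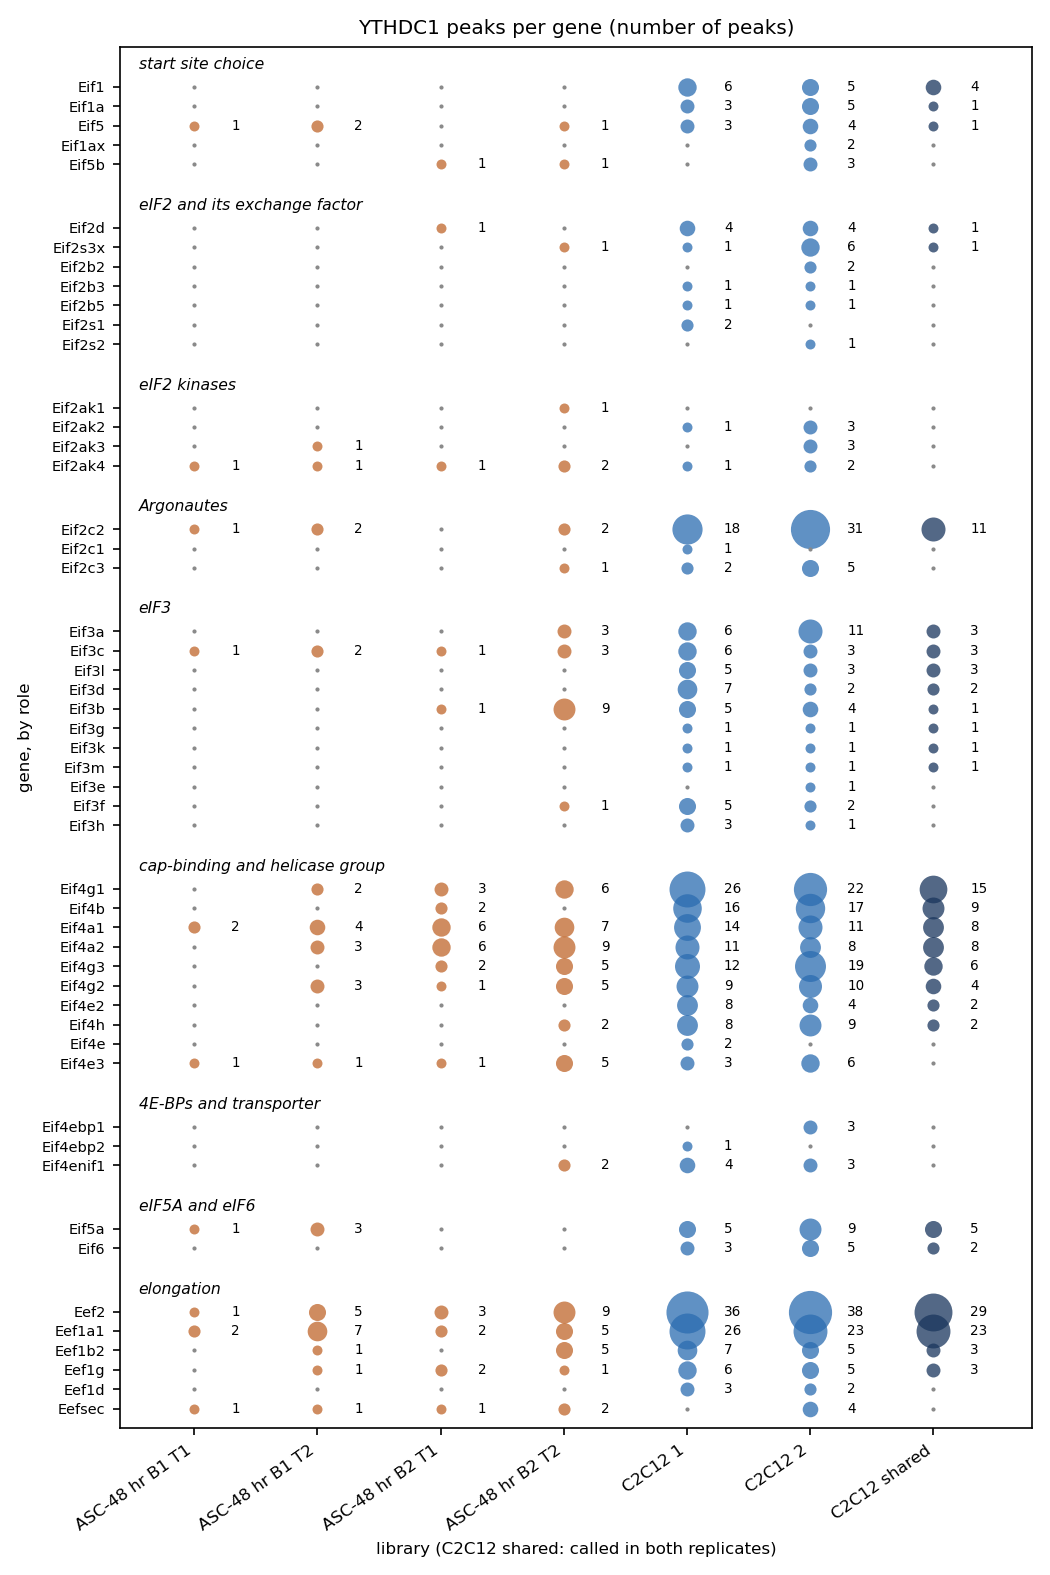
Number of peaks in each of the 51 genes with at least 1 peak (rows, ordered by role) in each library and shared between both C2C12 libraries (columns). The area of a dot grows with the number printed beside it, small grey points stand for 0, and Eef2 and Eef1a1 hold the most shared peaks with 29 and 23.

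By place in the gene, the shared C2C12 peaks lay mostly in the spliced part. Of the 153, 81 (52.9%) had their midpoint in a coding exon, 33 (21.6%) in a 3′UTR, 6 (3.92%) in a 5′UTR, 8 (5.23%) in an exon of a noncoding transcript of the gene and 25 (16.3%) in an intron. Over all protein-coding genes the same classes held 41.4%, 19.4%, 4.52%, 1.40% and 33.3% of 19610 shared peaks. The exon share was thus 83.7% (95% Clopper-Pearson interval 76.8 to 89.1%, over peaks) in the factor genes and 66.7% in all protein-coding genes. Without Eef2 and Eef1a1 it was 80.2% of 101 peaks. Where a peak was called intronic as soon as any transcript had an intron there, it was 70.6%.

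In each of the 6 libraries a larger share of peaks lay in exons, those of noncoding transcripts included, in the factor genes than in all protein-coding genes. The share was 41.7% of 12 peaks in B1 T1 (18.0% in all genes), 66.7% of 39 in B1 T2 (28.4%), 67.6% of 34 in B2 T1 (39.4%) and 54.5% of 88 in B2 T2 (42.4%). In C2C12 it was 78.2% of 284 peaks (61.9%) and 71.4% of 311 (56.6%). Without Eef2 and Eef1a1 it was 22.2% of 9 peaks in B1 T1, 51.9% of 27 in B1 T2, 65.5% of 29 in B2 T1 and 47.3% of 74 in B2 T2, and 74.8% and 66.4% in C2C12. B1 T1 moved most, to 2 of 9 peaks. In the ASC libraries, exons of noncoding transcripts held 1 of 12, 5 of 39, 6 of 34 and 14 of 88 peaks. These lay mostly on snoRNA genes of Eif4a1 and Eif4a2. In B2 T2, coding exons held 28 of the 88 peaks, 3′UTRs 4 and 5′UTRs 2. Without the noncoding class, B2 T2 would lie below the 42.4% of all genes, in which that class is counted. Averaged over replicates, the exon share of the factor genes was 74.8% ± 4.80 (SD, n = 2) in C2C12 and 57.6% ± 4.90 (SD, n = 2 biological replicates) in ASC-48 hr. The difference of 17.1 percentage points had p = 0.333 in a two-sided exact permutation test, which is the smallest p that 2 against 2 allows. The cell types also differed in number of cells and in the lowest height listed, so the difference cannot be told apart from these. Labels call the C2C12 replicates biological and the text of the study calls them technical, so their spread may be technical.

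**Figure D2:**
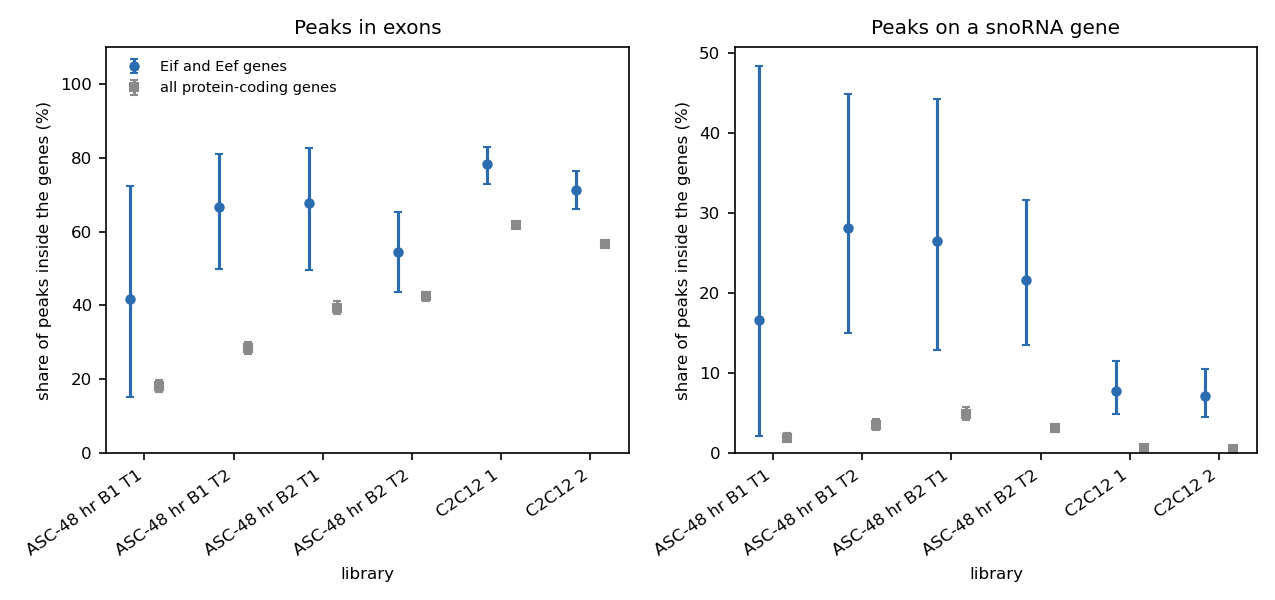
Share of peaks in exons (left) and on an annotated snoRNA gene (right), in percent of the peaks inside the genes, for each library; points are the factor genes and squares all protein-coding genes, with 95% Clopper-Pearson intervals over peaks. With exons of noncoding transcripts counted, both shares are higher in the factor genes in all 6 libraries. In B2 T2 that class holds 14 of the 88 peaks, mostly on snoRNA genes. Without it the exon share would lie below that of all protein-coding genes, in which the class is still counted. The intervals are widest in B1 T1, which holds 12 peaks.

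The snoRNA genes inside these host genes held many of the peaks. A total of 15 of the 153 shared C2C12 peaks (9.80%, interval 5.59 to 15.7%) overlapped a snoRNA gene of the same strand, beside 0.943% of the shared peaks of all protein-coding genes. They comprise all 8 peaks in exons of noncoding transcripts and 7 of the 25 in introns. In the ASC libraries the share was 16.7%, 28.2%, 26.5% and 21.6% of the peaks in the factor genes, against 1.86%, 3.54%, 4.86% and 3.06% in all protein-coding genes. In the C2C12 libraries it was 7.75% and 7.07%, against 0.585% and 0.527%. Eif4a1 and Eif4a2 supplied most of them, and without these genes the share of shared C2C12 peaks was 3.65%. In single libraries it was then 0 of 10 peaks in B1 T1, 4 of 32 (12.5%) in B1 T2, 0 of 22 in B2 T1, 6 of 72 (8.33%) in B2 T2, and 9 of 259 and 11 of 292 (3.77%) in C2C12. Of 17 snoRNA genes inside 9 members, 12 (70.6%) held a shared C2C12 peak, while 40.1% of the 367 snoRNA genes inside protein-coding genes did so. LACE-seq fragments do not tell an intron of the host transcript from the mature snoRNA.

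Among the factors that recognise the cap and unwind the mRNA, 8 of 12 genes held 54 shared C2C12 peaks. Eif4a2 (ENSMUSG00000022884.8, chr16:23107517-23114209), which encodes a form of the helicase eIF4A, held 0, 3, 6 and 9 peaks in the ASC libraries (here and below in the order B1 T1, B1 T2, then both of B2), 11 and 8 in C2C12 and 8 shared. B1 T1 was the only library without a peak. Of the 8 shared peaks, 7 lay on a snoRNA gene and 1 in a coding exon. The highest, on SNORA63 at chr16:23110521-23110540, had 27 and 23 reads in C2C12, 6 in B1 T2 and 9 in B2 T2. It has 2 copies.

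The other snoRNAs of Eif4a2 were bound to different heights. The peak at the first bases of Snora81 had 21 and 20 reads in C2C12, and no ASC library called that bin. The second SNORA63 gene carried a peak of 29 and 6 reads in C2C12. At 20 nt further along that snoRNA, chr16:23111401-23111420 was called in 3 ASC libraries with 6, 13 and 8 reads and in neither C2C12 library. SNORA4 held 2 shared peaks, one of 11 and 11 reads that was also called in B2 T1 with 11 reads, and Snord2 held 1, of 8 and 7 reads.

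Eif4a1 (ENSMUSG00000059796.9, chr11:69480438-69485925), which encodes the other form of eIF4A, held 2, 4, 6 and 7 peaks in the ASC libraries, 14 and 11 in C2C12 and 8 shared. All 3 of its snoRNA genes held a shared peak. SNORA67 and snoU6-77 were called in all 6 libraries and SNORA48 in all but B1 T1. The highest peak of the gene, on snoU6-77, had 15 and 17 reads in C2C12. On SNORA48 the reads were 9.5 and 9.5 in C2C12 and 6.5, 9 and 10 in the ASC libraries that called it, but this peak has 49 copies. The other 5 shared peaks lay in coding exons (4) and an intron (1), with 6 to 13.5 reads on average.

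**Figure D3:**
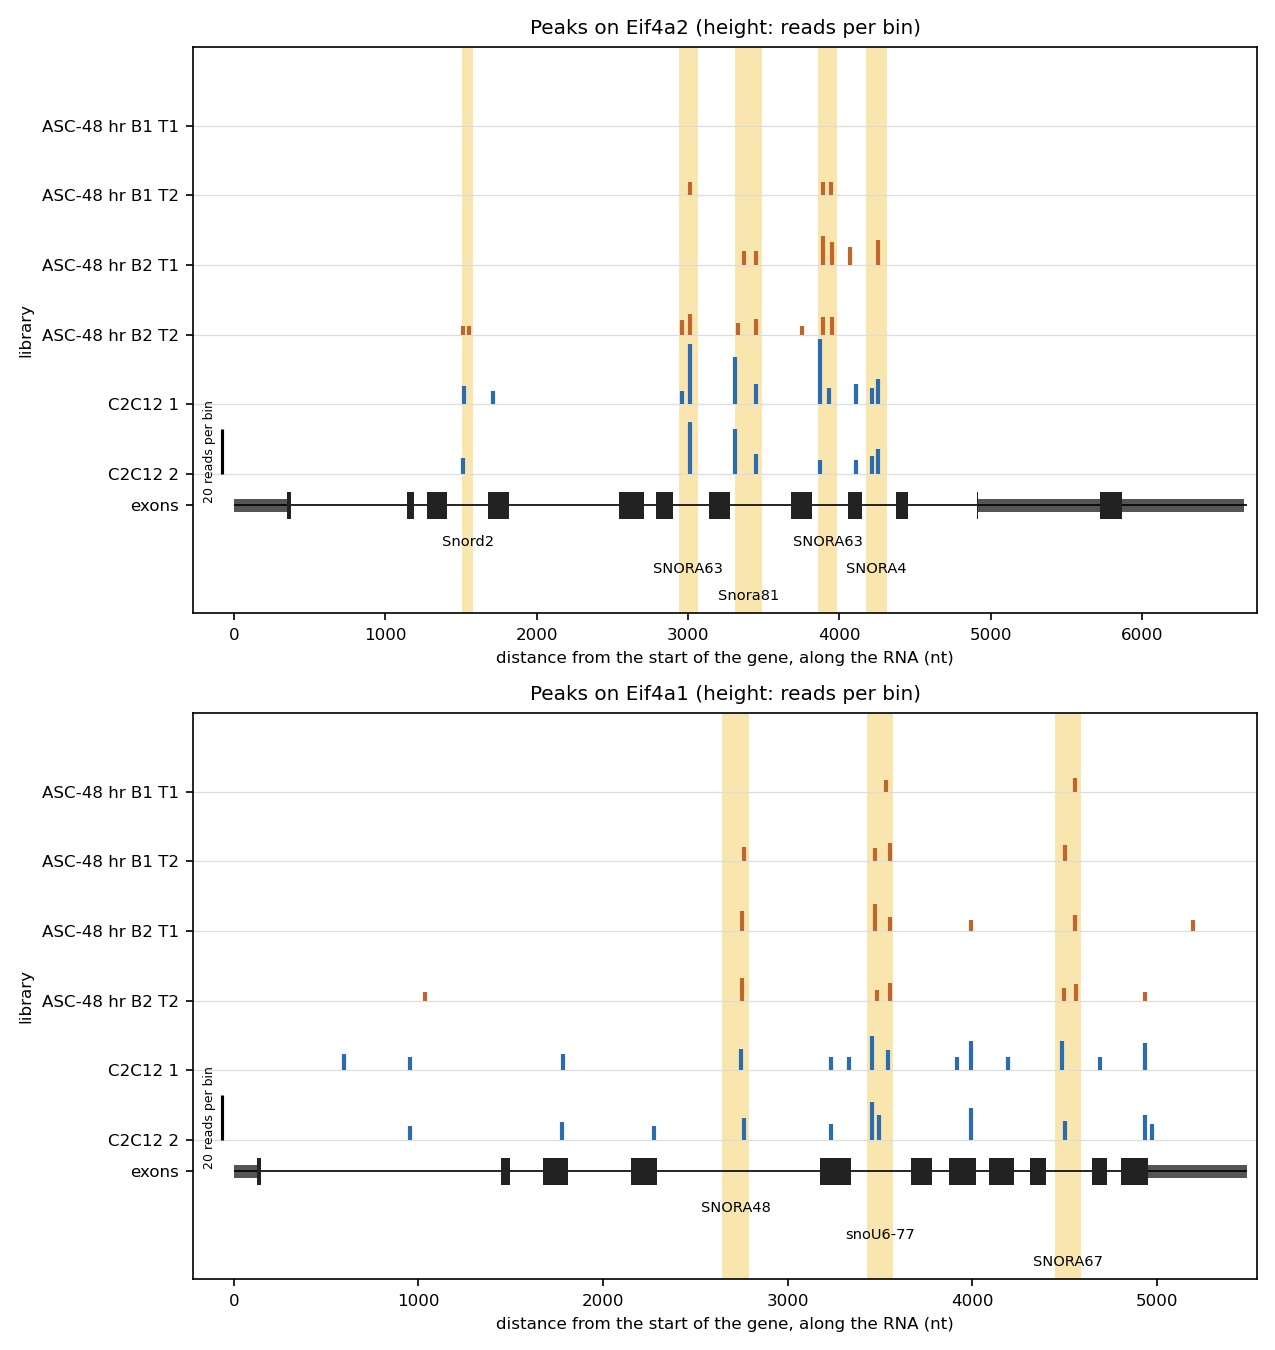
Peaks on Eif4a2 (top) and Eif4a1 (bottom) in each library, against distance from the start of the gene in nt along the RNA; the height of a line is the reads per bin (scale bar, 20 reads), boxes are exons of protein-coding transcripts (thick where coding) and yellow bands are snoRNA genes. Most ASC peaks of both genes lie on the bands, and in Eif4a2 7 of the 8 shared C2C12 peaks lie there.

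The scaffold genes of the cap complex followed. Eif4g1 (ENSMUSG00000045983.8) held 0, 2, 3 and 6 peaks in the ASC libraries, 26 and 22 in C2C12 and 15 shared, of which 11 lay in coding exons, 2 in the 3′UTR and 2 in introns. Its highest peak lay on Snord66 with 27 and 6 reads in C2C12 and 6 in B2 T2. An intron peak of 17 and 7 reads had its midpoint 2 nt from a splice site. Eif4b, which encodes a cofactor of the helicase, held 9 shared peaks, 4 of them in the 3′UTR, where chr15:101927041-101927060 had 18 and 15 reads. In the ASC libraries Eif4b held 2 peaks, both in B2 T1.

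Eif4g3, a further scaffold gene, held 6 shared peaks, all in introns, where Eif4g1 held 2 of 15. The introns of Eif4g3 span 205203 nt and those of Eif4g1 18538 nt, so these counts are not like for like. Of the 6 peaks of Eif4g3, 4 fell within chr4:137618641-137618880, and these have 5 or 6 copies each. Eif4g2, which encodes a scaffold that lacks the part binding eIF4E, held 4 shared peaks, 3 in coding exons with 9 to 11.5 reads on average and 1 on snoU97 with 8 and 6 reads. The 2 remaining genes of the group with shared peaks, Eif4e2 and Eif4h, held 2 each.

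The elongation factors held 58 shared C2C12 peaks in 4 of 8 genes. Eef2 (ENSMUSG00000034994.9, chr10:80639376-80645252) held 1, 5, 3 and 9 peaks in the ASC libraries, 36 and 38 in C2C12 and 29 shared. By number of shared peaks it ranked 56 among the 4864 genes that had any, and with 8.39 shared exon peaks per kb of exon it ranked 33 among 3584. Of the 29, 22 lay in coding exons, 3 in the 3′UTR, 1 in the 5′UTR and 3 in introns, so that peaks ran along nearly the whole spliced transcript. Of these peaks 19 have 1 copy and 10 have more, up to 7. The reads in its peaks summed to 557 and 497 in C2C12, and to 6, 32, 19 and 42 in the ASC libraries.

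The highest peak of Eef2, on Snord37, had 29 and 28 reads in C2C12, and no ASC library called that bin. A second peak on Snord37, at chr10:80641721-80641740, had 7 and 6 reads in C2C12 and 5 in B2 T2. In the coding exons, chr10:80644021-80644040 had 25 and 19 reads, chr10:80642901-80642920 had 19 and 23 and chr10:80640421-80640440 had 14 and 27. None of these was called in ASC-48 hr. The 5′UTR peak, chr10:80639381-80639420, was called in 5 libraries, with 6 reads in B1 T1, 8 in B1 T2, 7 in B2 T1 and 14.5 and 25 in C2C12. It was the only peak of Eef2 called in more than 1 ASC library.

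**Figure D4:**
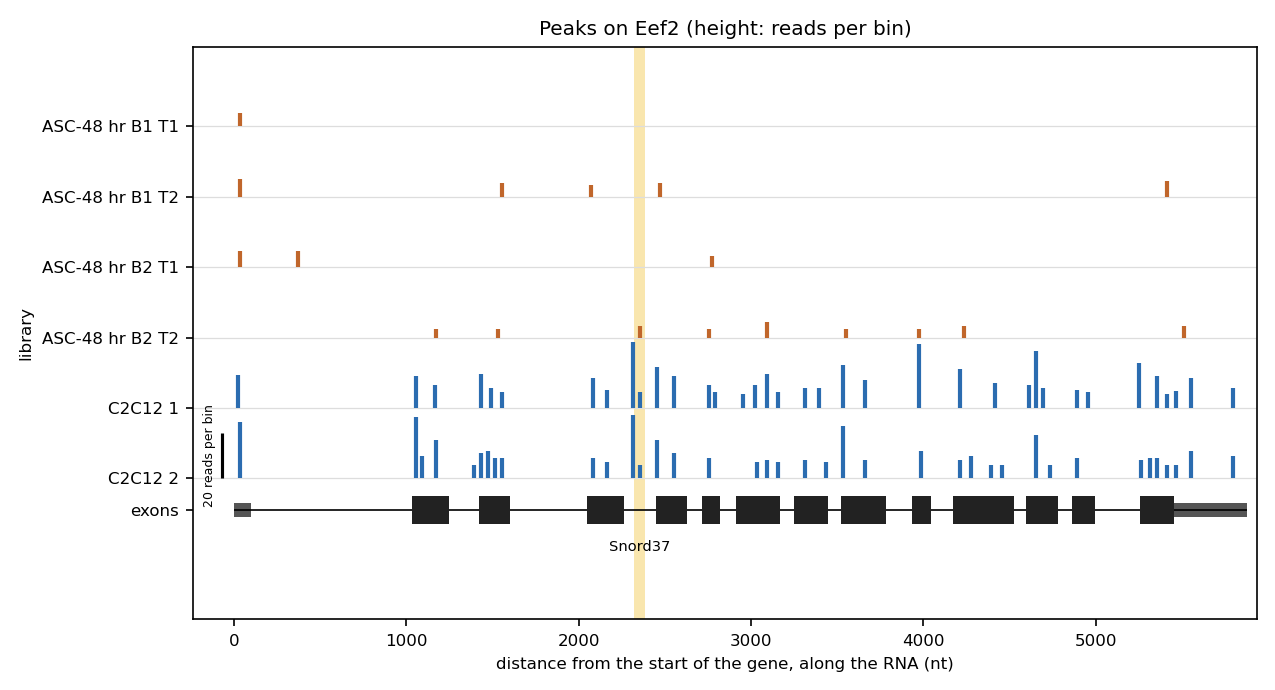
Peaks on Eef2 in each library, against distance from the start of the gene in nt along the RNA; the height of a line is the reads per bin (scale bar, 20 reads), boxes are exons (thick where coding) and the yellow band is Snord37. The C2C12 peaks cover the coding exons, the highest stands at the edge of Snord37 with 29 and 28 reads, and the 5′UTR peak is also called in 3 of 4 ASC libraries.

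Eef1a1 (ENSMUSG00000037742.8, chr9:78326256-78336958) held 2, 7, 2 and 5 peaks in the ASC libraries, 26 and 23 in C2C12 and 23 shared, 19 of them in coding exons. With 10.4 shared exon peaks per kb of exon it ranked 16 among 3584 genes, above Eef2. Of the 23 peaks, 18 have more than 1 copy, up to 16, and each read could be placed at up to 10 positions, so that reads of other copies of this sequence may be counted here. The 5 peaks with 1 copy included the 5′UTR peak of 15 and 16 reads, which B1 T2 also called with 8 reads. A coding region at chr9:78327441-78327560, merged from neighbouring peaks, held a peak in all 6 libraries. Its reads were 7, 9, 5 and 6 in ASC-48 hr and 12 and 8.67 in C2C12. The libraries did not all call the same bin, and Eef1a1 held 0 shared ASC peaks. Its shared C2C12 peaks at chr9:78327461-78327520 and chr9:78327541-78327560 have 1 and 4 copies, and neither overlapped a peak of B1 T1 or B2 T1.

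The subunits of the exchange factor of eEF1A held fewer peaks. Eef1b2 held 0, 1, 0 and 5 peaks in the ASC libraries and 3 shared C2C12 peaks, the highest in the 5′UTR with 14 and 14 reads. Its intron peak at the edge of Snora41 had 24 reads in C2C12 1, was not called in C2C12 2 and had 5 and 4 reads in B1 T2 and B2 T2. Eef1g held 3 shared peaks of 6 to 7 reads on average.

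The subunits of eIF3 held 15 shared C2C12 peaks in 8 of 13 genes, with at most 3 in a gene. Eif3l held 3 in coding exons, the highest with 10 and 13 reads, and no peak in ASC-48 hr. Eif3a held 2 in coding exons and 1 in the 5′UTR. In ASC-48 hr all 3 peaks of Eif3a came from B2 T2. Eif3c held 1 shared peak in a coding exon and 2 on a U6 gene in its intron, U6 being an RNA of the spliceosome. This U6 region, chr7:133707401-133707480, was called in all 6 libraries, with 6.5, 8, 10 and 7.25 reads in ASC-48 hr and 14 and 10 in C2C12. Its higher C2C12 peak, shown with the U6 bases in capitals because it is the highest of this region, was called in B1 T2, B2 T2 and both C2C12 libraries. It has 284 copies, among which the source of the reads cannot be told apart.
Eif3c, intron, U6, chr7:133707456-133707485, minus strand: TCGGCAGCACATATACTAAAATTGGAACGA
The only shared peaks of Eif3k and Eif3g lay in introns and had 47362 and 46281 copies.

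Among the factors that choose the start site, Eif1 held 4 shared C2C12 peaks, the highest with 9 and 17 reads in a coding exon, and none in ASC-48 hr. These 4 peaks have 4 to 18 copies. Eif5, which stimulates GTP hydrolysis by eIF2, held 1 shared peak, on Snora28 with 10 and 7.5 reads, which B1 T2 also called with 5 reads. Eif5a, which relieves stalled ribosomes, held 5 shared peaks, all in the 3′UTR with 2 to 4 copies, with 7 to 8.5 reads on average, and 1, 3, 0 and 0 peaks in ASC-48 hr. Eif6, a factor that keeps the ribosomal subunits apart, held 2, one of them with 36731 copies. The 11 genes of eIF2, its exchange factor eIF2B and, grouped with them by symbol only, Eif2a and Eif2d, which encode separate factors, held 2 shared peaks. These lay in the 3′UTR of Eif2s3x, a subunit of eIF2, and in an intron of Eif2d. The 4 kinases of eIF2, the 4 genes of the eIF4E-binding proteins and transporter, and Eef2k, the kinase of eEF2, held no shared C2C12 peak. A C2C12 peak that was not shared was called in 3 of the 4 kinases and in 3 of the 4 genes of binding proteins and transporter. The kinase gene Eif2ak4 held a shared ASC peak. These groups are small, and 21.9% of all protein-coding genes held a shared C2C12 peak.

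Eif2c2 is the old symbol of Argonaute 2, which acts with microRNAs and is no translation factor in the strict sense, although the name put it in the group. It held 1, 2, 0 and 2 peaks in the ASC libraries, 18 and 31 in C2C12 and 11 shared. Of these, 8 lay in the 3′UTR, where the 8 peaks spread from 168 to 4708 nt past the stop codon, and 3 in coding exons. They were low, with 6 to 11 reads on average. The other Argonaute genes held no shared peak.

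All 4 shared ASC peaks lay in introns, and they are shown with the peak in capitals because they are the only peaks of these genes that met the rule for sharing in ASC-48 hr.
Eif2ak4, chr2:118268416-118268445, plus strand: tagggATGTGGCTCAGTCGGTAGAGcactt
Eif4e3, chr6:99563876-99563905, minus strand: gggccTTGGTCACACTCCTGCTTATtcaca
Eefsec, chr6:88338276-88338305, minus strand: tttttTTTTTTTGTCTGCGCTCTCCaggca
Eif3c, chr7:133707406-133707435, minus strand: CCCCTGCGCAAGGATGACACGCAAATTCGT
In Eif2ak4, which encodes the kinase GCN2 that responds to lack of amino acids, the reads were 8, 7, 5 and 4 in the ASC libraries, and the peak has 3 copies. In Eif4e3, a relative of the cap-binding eIF4E, they were 6, 7, 6 and 5. Neither peak was called in C2C12. The Eefsec peak, in the gene of the elongation factor for selenocysteine, had 5, 6, 5 and 6 reads and was also called in C2C12 2 with 6. On the strand of the reads, 10 or more G in a row stand no more than 20 nt away. The Eif3c peak is the U6 region described above, and it has 130 copies.

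Merged over the 6 libraries, the peaks of the 67 genes formed 513 regions, of which 341 were called in 1 library, 123 in 2, 34 in 3, 8 in 4, 5 in 5 and 2 in 6. Both cell types called 50 regions, ASC-48 hr alone 75 and C2C12 alone 388. Both ASC biological replicates called 20 regions, and 10 of these lay on a snoRNA or U6 gene, mostly inside Eif4a1 and Eif4a2. No such count was made over all protein-coding genes. Of the ASC peaks in the factor genes, 58.3%, 66.7%, 41.2% and 33.0% overlapped a C2C12 peak, while 29.0%, 36.0%, 35.5% and 23.6% of the peaks in all protein-coding genes did so.

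The heights of the 153 shared peaks were compared between the C2C12 libraries. Over these peaks, Pearson's r of the log2 reads per bin was 0.588, which describes peaks of 2 libraries that were listed only where both passed their thresholds. Their median height in C2C12 1 was 9 reads, and 8 reads for the shared peaks of all protein-coding genes. Of the 284 peaks of C2C12 1 in the factor genes, 153 (53.9%, interval 47.9 to 59.8%) were found in C2C12 2, against 45.5% of those in all protein-coding genes. The share was 41.0% of peaks under 10 reads (38.9% in all protein-coding genes), 87.1% of those with 10 to 19 (79.0%) and 8 of 9 with 20 or more (97.3%).

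**Figure D5:**
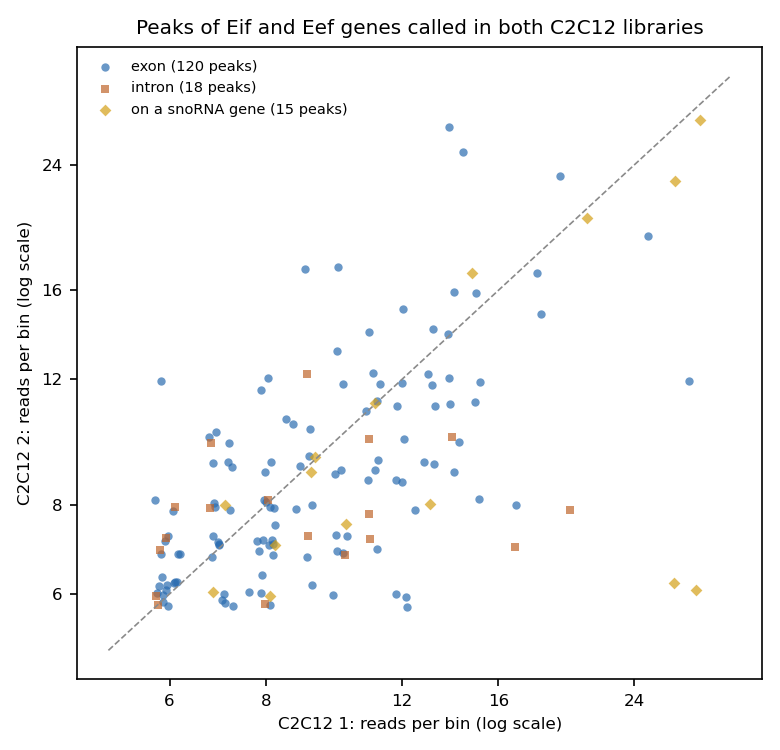
Reads per bin (log scales) in C2C12 1 and C2C12 2 of the 153 peaks shared by both libraries, with points moved at random by up to 0.25 reads so that equal values can be seen; the dashed line marks equal heights. Peaks in exons (120), in introns (18) and on snoRNA genes (15) are coloured apart, and the snoRNA peaks include the highest, at 29 and 28 reads.

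The sequence around the shared C2C12 peaks was searched for the contexts in which m6A is most often found, in the peak and 20 nt on either side. GGACT occurred on the RNA strand at 7 of 153 peaks (4.58%) and at 5.97% of the shared peaks of all protein-coding genes. GGACC occurred at 3.27% and 6.17%, GGACA at 13 of 153 peaks and 6.45%, and GGAC followed by any base at 17.6% and 19.9%. On the opposite strand GGACT occurred at 7.84% and 5.31%, and GGAC at 26.8% and 24.5%. The interval of the factor genes' share with GGACT on the RNA strand, 1.86 to 9.20%, holds the share of all genes. Eif4g1 held 3 of the 7 peaks with GGACT, 1 in a coding exon with 11 and 12 reads and 2 in the 3′UTR. The higher of these, chr16:20692541-20692560, had 14 and 10 reads, with the letters in its flank. The other is shown, with the motif in capitals, because the letters touch the peak itself.
Eif4g1, 3′UTR, chr16:20692816-20692845, plus strand: tattttctgaaatcactcttgGGACTgccg
The peak shown had 7 and 7 reads in C2C12 and 5 in B2 T1. A match of these letters is not a methylated site, and methylation was not analysed here. Of the 118 shared peaks that could be placed on the spliced transcript, 17 (14.4%) lay within 200 nt of the stop codon, a window that covers 12.8% of the spliced length of these genes, while over all protein-coding genes 15.1% of peaks lay in such a window, which covers 9.69% of the length.

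Other genes of translation were counted in the same way, from a list of 30 that holds poly(A)-binding proteins, release factors, kinases and regulators of mTOR. A shared C2C12 peak was found in 15 of 30, beside 28 of the 67 factor genes and 21.9% of all protein-coding genes. The median was 0.5 peaks per gene, beside 0 in the 67 factor genes and 0 in all protein-coding genes. The most were held by Ppp1r15b, a regulatory subunit of the eIF2 phosphatase, with 15, and by Pabpc1, a poly(A)-binding protein, and Larp1, a regulator of mRNAs that encode ribosomal proteins, with 12 each. Shared ASC peaks were found in 3 of 30, Pabpc4, Mknk2 and Etf1, beside 4 of the 67 factor genes and 2.48% of all protein-coding genes.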

How the data were processed

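LACE-seq peaks were analysed in 4 libraries of ASC-48 hr and 2 of C2C12. Reads were trimmed with cutadapt 1.15 and aligned to mm9 with Bowtie 1.2.3 at up to 10 positions each, and deepTools was also used, per the submitters' processing notes and the study's methods. Piranha called the peaks, with 20-nt bins and a p threshold of 0.001 named for ASC-48 hr only. The treatment of duplicate reads was not given in the sources used here. The signal deposited by the authors is the number of reads per bin of each peak, and the p-value of each peak is that of Piranha, as deposited. Depth is known only as the reads in peaks, 57953 to 607366 per library. Intervals cover counting error only, and neighbouring peaks share reads of 1 gene.

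Peaks were assigned with Python 3.11.15, numpy 2.4.6, pandas 2.3.3 and pysam 0.24.0 to genes that hold them wholly on the opposite strand, and their midpoints were classed in the order coding exon, UTR, noncoding exon, intron. Sharing needed an overlap of 1 nt. Scripts were tested on simulated peaks. The members and lists were chosen with earlier results of these data known. Named with values were the 15 members with most shared C2C12 peaks, those with a shared ASC peak, those of the 10 highest peaks and the first of each role. Other genes named with values were chosen after their values were seen. Alternatives covered the p-value, reads, copies, strand, overlap, class order and each library left out.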

Additional observations from a re-analysis of the deposited data

Results flagged for a closer look

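The number of peaks differed in 1 of the 4 ASC libraries from an equal number in the other 3 for 6 genes, out of 22 values examined. Equal values in 3 libraries give the widest possible gap whatever the data, and the libraries are technical replicates of 2 biological ones. The rate of about 1 in 20 groups that chance gives therefore does not apply, and the counts are given as a description. B2 T2 held 2 peaks in Eefsec and 2 in Eif2ak4 where each other ASC library held 1, 5 peaks in Eif4e3 where each other held 1, and 3 peaks in Eif3a where the others held 0. The list of B2 T2 is the longest of ASC-48 hr (19448 peaks) and reaches down to 4 reads, where the others end at 5. Its additional peaks in Eefsec, Eif2ak4 and Eif4e3 all had 4 reads, a height that the other ASC lists do not hold, while those in Eif3a had 6, 4 and 5. B2 T1 held 2 peaks in Eif4b and 1 in Eif2d where the others held 0.

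On the strand of the gene itself, which the report does not use, 6 shared C2C12 peaks lay inside the 67 genes, all in introns. Of these, 3 stood near a run of G on the strand of the reads, in Eef2k, Eif2c2 and Eif2s3x, and the same positions formed the 3 shared ASC peaks on this strand. The others were a second peak in Eef2k with 281 copies, a peak in Eif2b3 with 2471 copies, and a peak of 10 reads in Eif4e3 with 1 copy.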

How the results depend on the processing

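Of 61 alternative values, 43 stayed within the tolerance and 18 did not. The tolerance was 1.5 times for counts, which 42 against 28 genes just met, the 95% interval for shares, and for the difference between cell types its sign or, with a replicate left out, the spread between replicates. At p of at most 1e-05 in each library, 32 shared C2C12 peaks in 13 genes and 0 genes with a shared ASC peak were left, and 45.71% of the peaks of C2C12 1 were found again. With peaks of 1 copy only, the values were 86 shared peaks, 2 ASC genes and 47.25%. At 10 or more reads in both C2C12 libraries, 38 peaks in 14 genes were left. Counting either strand gave 7 ASC genes, and a peak in at least 1 library of each biological replicate gave 13. Introns first gave an exon share of 70.59%. Leaving out each library in turn gave 284 to 311 C2C12 peaks in 42 to 46 genes, an exon share of 71.38 to 78.17% and 5 to 7 genes with a shared ASC peak, 7 without B1 T1. The difference in exon share between cell types was 13.75 and 20.54 points without a C2C12 library, and 13.68 and 20.61 without a biological replicate of ASC-48 hr, B1 or B2, with both its libraries. No single ASC library was left out of it. Chosen after seeing the data, leaving out Eif4a1 and Eif4a2 gave a snoRNA share of 3.65%. No paired analysis was possible because the replicate numbers of ASC-48 hr and C2C12 name separate cultures of different cells, and the only test sets 2 against 2.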
